A study of Mus musculus with 124 samples.

Results

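T cells from the blood of mice exposed to ethanol before birth (EtOH) were compared with those of the phosphate-buffered saline (PBS) group. The comparison covered all genes, in 12 of the 85 samples of the series. The 12 are the PBS samples JS1, JS4, JS7, JS12 and JS15 and the EtOH samples JS23, JS35, JS38, JS41, JS44, JS50 and JS53. 3 further T cell samples, JS20 (PBS), JS29 and JS32 (EtOH), belong to the number runs JS17 to JS22 and JS29 to JS34, in which samples may have been exchanged between the groups, and were left out. The stock was CD1, an outbred mouse line, in both groups, with no genotype label. The EtOH group received ethanol at 4.0 g/kg (25% in PBS) by intraperitoneal injection on embryonic days 16 and 17, and the blood of the offspring was taken between postnatal days 35 and 40 and sorted by flow cytometry. By label the EtOH samples were 5 females and 2 males and the PBS samples 2 females and 3 males, all of sequencing batch 1. The series asks for blood RNA markers of impaired cognition that prenatal alcohol shares with maternal diabetes. Whether each sample is a different animal is not labelled, nor is the dam or litter. The p-values therefore cover the spread among these samples alone, which may be technical. The ethanol came before birth, so samples of the same litter would not be independent. Litter and treatment cannot be told apart here.

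T lymphocytes recognise antigen through the T cell receptor, and cytokines such as interleukin 4 and interferon gamma then steer what the cells become. The same cells respond within minutes to handling, stress hormones and cyclic AMP by switching on early genes, many of them short-lived transcription factors and kinases. Blood T cells also follow the circadian clock, whose repressors include the Per proteins, and sorted fractions can carry RNA of red cell precursors, basophils, natural killer cells or B cells.

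The samples were chosen by number run, and the runs were selected on sex genes and cell type markers of these same data with all other values known. These values are given as a description only, and whether differences between EtOH and PBS entered the choice is not recorded. JS20, labelled female, held Xist, the RNA of the inactive X chromosome, at 2.82 counts per 1000000 (CPM) and 4 Y-linked genes at a sum of 363 CPM. JS32, labelled male, held Xist at 50.9 CPM and the Y-linked genes at 0. JS29 held 15 T cell markers at a sum of 450.2 CPM and 14 monocyte markers at a sum of 34620 CPM, against 7667 to 14832 and 465 to 1463 CPM in the 12 samples. Of the samples kept, JS15 and JS44, both labelled male, held Xist at 79.0 and 58.9 CPM with Y-linked sums of 4.16 and 0 CPM, so that 2 of 12 sex labels went against the sex genes. Total counts (in M, 1000000 counts) ran from 3.37 to 5.59 M in PBS and from 0.33 to 5.78 M in EtOH, the lowest in JS23. The 10 pairs of repeat libraries lay near sampling noise, with a chi-square per gene of 1.13 to 1.32 against 4.84 to 53.8 between libraries of different samples of a group, and each pair was summed and counted once.

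The label T cell fitted the markers in all 12 samples, and some samples stood apart by other cells' markers or by depth. All 15 T cell markers were measured, led by the kinase gene Lck at 1472 to 3644 CPM in EtOH and 1768 to 2096 CPM in PBS. B cell markers (13 of 16 measured) summed to 5560 CPM in the PBS sample JS1, against 538 to 731 CPM in the other PBS samples and 779 to 988 CPM in EtOH. JS23, the shallowest sample, held 23.6% of its counts in its 50 highest genes and genes of smell and pheromone receptors at 6496 per 1000000 counts. The EtOH samples JS41 and JS35 held these receptor genes at 1730 and 914 per 1000000 counts. The remaining EtOH samples lay at 42.3 to 112 and the PBS samples at 24.3 to 242. Genes detected were 34941 in JS41 and 32483 in JS35, against 18316 to 28015 in other EtOH samples and 19161 to 26306 in PBS. Whether this background entered the calls was not tested. Natural killer markers (11 of 12 measured) were highest in JS15 (4215 CPM) and JS44 (4145 CPM), 1 sample of each group, and ranged from 472 to 2171 CPM in the others. The share of counts from mitochondrially encoded genes was 0.642% ± 0.0982 (SD, n = 7) in EtOH and 0.858% ± 0.158 (n = 5) in PBS (exact two-sided permutation test over 792 regroupings, p = 0.0152, adjusted p = 0.0758 over 5 quality measures). The other 4 measures (total count, genes detected, the share in the 50 highest genes and receptor genes) had adjusted p between 0.369 and 0.985.

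**Figure D1:**
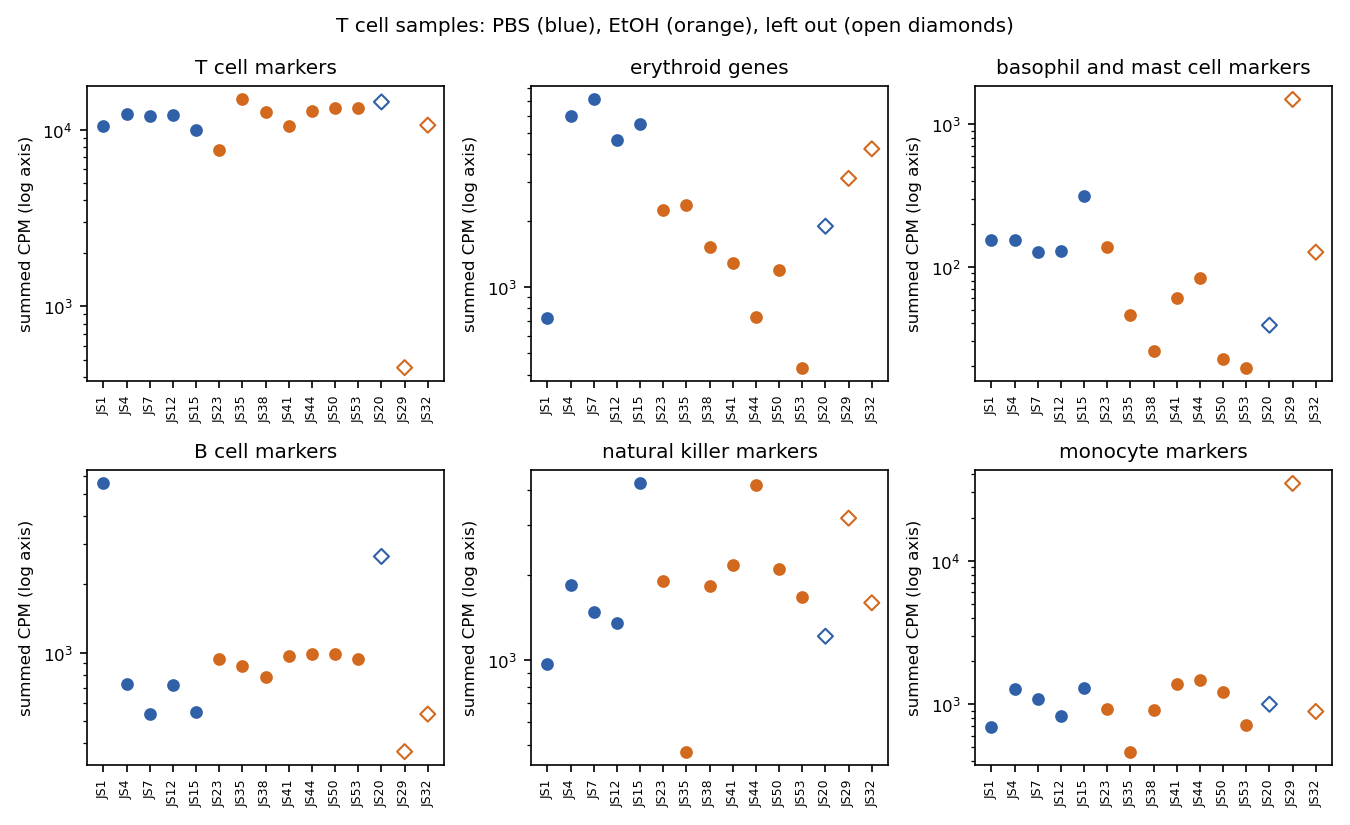
Summed CPM of 6 marker lists (log axis) in each T cell sample, with PBS in blue, EtOH in orange and the 3 left-out samples as open diamonds. JS1 has the highest B cell sum (5560 CPM) and, among PBS, the lowest erythroid sum (723 CPM), and JS29 has the lowest T cell sum and the highest monocyte sum.

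Over all 12797 genes tested, 569 passed (edgeR quasi-likelihood test with labelled sex as a term, Benjamini-Hochberg adjusted p under 0.05), which is 4.45%. Of these, 197 (1.54% of the genes tested) were higher in EtOH and 372 (2.91%) lower. Among all 12797 genes, whether they passed or not, the CPM values of both groups did not overlap for 395 (3.09%). The lowest p belonged to the interleukin 4 receptor gene Il4ra, which fell, and, among the genes that rose, to the junction scaffold gene Magi1. The count depended on single samples, at 96 without the PBS sample JS7, 139 without JS4, 268 without JS12, 299 without the EtOH sample JS41, 307 without JS53, 329 without JS38 and 955 without the PBS sample JS1. Without both JS1 and JS23 it was 840, and without JS15 and JS44, whose sex genes go against the label, 269. With all 12 samples, the level of the Y-linked genes as a term in place of labelled sex gave 549, and no sex term 591. With the 3 left-out samples put back, 0 of 12750 genes passed with edgeR, and 1260 had an unadjusted p under 0.05, so the calls hold for this choice of samples only.

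**Figure D2:**
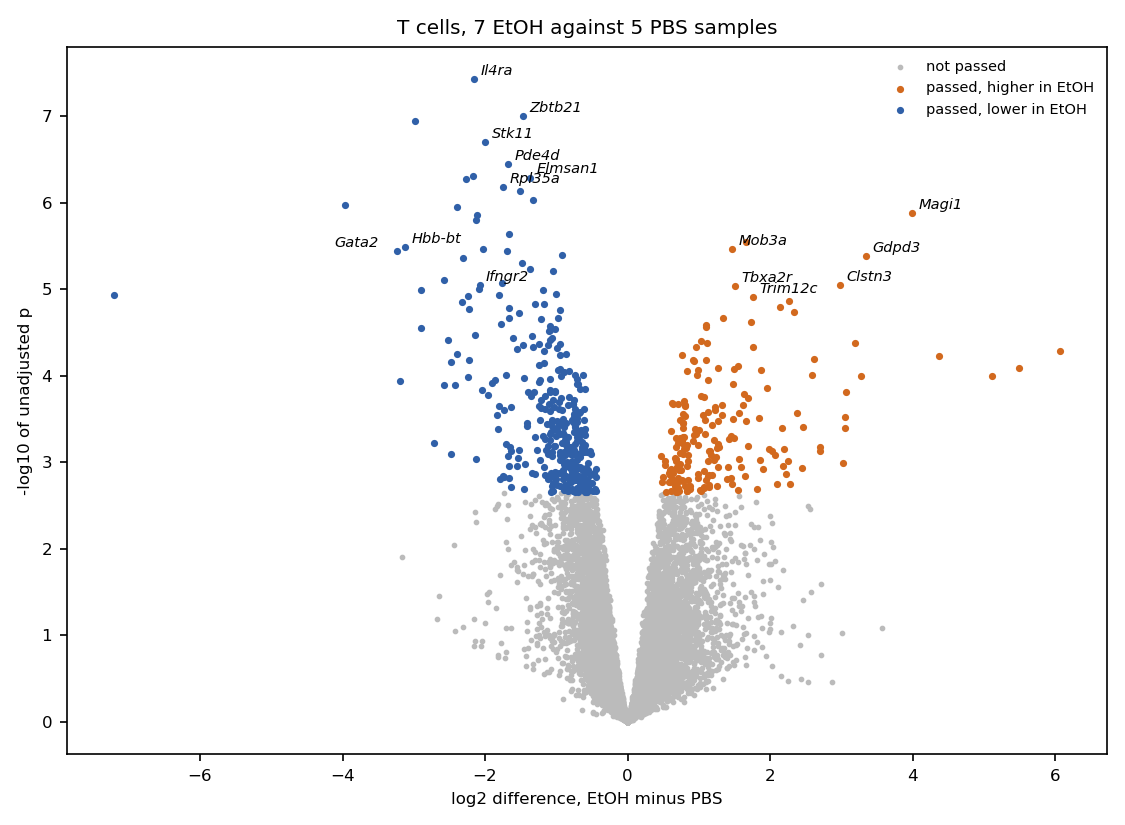
Each point is 1 of 12797 genes in T cells, with the log2 difference of EtOH minus PBS on the x axis and −log10 of the unadjusted p on the y axis, and orange or blue marks the 197 higher and 372 lower genes that passed. Il4ra has the lowest p and Magi1 lies farthest to the right among the genes labelled, and some unlabelled genes lie farther out.

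The left-out samples were set against the 569 genes without entering any fit. JS20, labelled PBS, lay nearer the EtOH mean than the PBS mean for 476 genes (83.7%), and JS32, labelled EtOH, for 152 (26.7%). JS29, with its monocyte markers, did so for 261 (45.9%). The samples kept, from which the 569 genes were picked, were each set against means that leave that sample out. They lay nearer the EtOH mean for 8 to 80 genes in 4 PBS samples, 243 in JS1 and 468 to 530 in EtOH. JS1 was thus the PBS sample with the fewest genes on its own side.

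In the values that follow, PBS samples are given in the order JS1, JS4, JS7, JS12 and JS15, and EtOH samples by their lowest, median and highest CPM. Positions are those of GRCm38. The differences and their SE are on the log2 scale and adjusted p are from edgeR's quasi-likelihood test over all 12797 genes. Among the genes that rose and among those that fell, the 15 of lowest p are described first, with predicted genes and pseudogenes set aside. All 7 EtOH samples were on the same side of the PBS mean for each of these 30, and each kept its call without any 1 of the 12 samples. Since the genes were picked by lowest p in these same samples, both facts follow largely from that choice. Put back into the fit, the left-out samples ended each of these 30 calls. Of 85 named genes that passed, 40 lost their call without at least 1 sample, 37 without JS4 and 38 without JS7, and those described below are given with the sample whose absence raised their p most. Of those 40, Atf4 kept its call in 1 of the 12 fits that leave out a sample, Ace, Bcl10 and Hspa5 in 2, Ifngr1, Nfil3, mt-Nd6 and Zkscan6 in 3, and Birc3, Socs3, Ms4a2, H2-T23 and Rpl3 in 4.

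Il4ra, the chain that binds interleukin 4 and interleukin 13 (chr7:125552120-125579474), was at 789.6, 1249, 1909, 1190 and 1152 CPM in PBS and at 213, 309.5 and 386 CPM in EtOH. The highest EtOH sample lay below the lowest PBS sample by more than the whole EtOH range. The difference was -2.15 ± 0.20 (adjusted p = 0.000476). JS20 held 523 CPM and JS32 860.2 CPM.

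Zbtb21, a zinc finger repressor gene (chr16:97943357-97962622), was at 86.5, 117.6, 132.5, 115.6 and 105.1 CPM in PBS and at 37.9, 44.0 and 54.7 CPM in EtOH, a difference of -1.47 ± 0.15 (adjusted p = 0.000481). Both groups were tight and apart. Stk11, the kinase LKB1 that activates AMP kinase (chr10:80115803-80130682), was at 152.1, 130.0, 96.8, 133.6 and 90.6 CPM against 18.3, 30.1 and 46.8 CPM, a difference of -1.997 ± 0.21 (adjusted p = 0.000637). The lowest PBS sample, JS15, lay well above the highest EtOH sample. Elmsan1, whose protein belongs to a histone deacetylase complex, fell by 1.37 ± 0.16 from 69.0 ± 22.8 to 31.7 ± 4.41 CPM (adjusted p = 0.00086), and Rpl35a, a ribosomal protein gene with near-identical copies, fell by 1.75 ± 0.21 from 52.8 ± 16.8 to 17.6 ± 4.08 CPM (adjusted p = 0.000933).

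Per1, a repressor of the circadian clock that cyclic AMP and glucocorticoids also switch on (chr11:69095217-69109960), was at 50.4, 121.2, 149.7, 97.7 and 133.0 CPM in PBS and at 12.3, 23.2 and 56.3 CPM in EtOH. The groups overlapped through JS1, which lay below the highest EtOH sample (JS35), and the other 4 PBS samples lay above every EtOH sample. The difference was -2.40 ± 0.29 (adjusted p = 0.00111). Klf9, a factor that glucocorticoids induce, was at 14.5, 49.8, 40.5, 25.5 and 27.3 CPM against 3.05, 8.65 and 9.68 CPM, without overlap and with JS1 again the lowest PBS sample (-2.11 ± 0.27, adjusted p = 0.00117). Pde4d, which degrades cyclic AMP, was at 43.4, 121.0, 126.7, 81.9 and 79.3 CPM against 26.3, 33.5 and 40.1 CPM, a difference of -1.68 ± 0.19 (adjusted p = 0.00086).

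The remaining lower genes of the 15 were the Ras-related GTPase gene Rrad (-1.33), the kinase gene Plk3 (-2.13), the ubiquitin ligase gene Rnf19a (-1.67), the haemoglobin gene Hbb-bt (-3.12), Arid5a, whose protein binds inflammatory mRNAs (-2.03), Zfand2a, an arsenite-inducible zinc finger gene (-1.68), and Gata2, a transcription factor that basophils, mast cells and blood stem cells need (-3.23). Their adjusted p ran from 0.00107 to 0.00202. Arid5a was the most abundant of them, at 478.5, 867, 1575, 773.3 and 765.3 CPM in PBS and 121.9, 263.8 and 323.6 CPM in EtOH. Of the 15 lower genes, 13 showed no overlap, and Per1 and Hbb-bt overlapped through JS1. Over all 12797 genes 3.09% showed no overlap, and the choice by lowest p favours such genes.

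Magi1 (chr6:93675455-94283917) was at 1.43, 0, 0.579, 2.86 and 0.594 CPM in PBS and at 10.7, 21.3 and 27.0 CPM in EtOH, so that it was hardly detected in PBS and present in every EtOH sample. The difference was 3.99 ± 0.50 (adjusted p = 0.00117). JS20, labelled PBS, held 24.2 CPM, and JS32, labelled EtOH, 8.89 CPM. Mob3a, of the family of MOB kinase activators (chr10:80685253-80701977), was at 156.9, 77.2, 130.8, 110.5 and 203.4 CPM against 225.6, 386.4 and 447.6 CPM (1.47 ± 0.20, adjusted p = 0.00202). The closest samples were JS15 and the shallow JS23. Gdpd3, of a family of phosphodiesterases for lysophospholipids, was at 1.79, 5.49, 2.701, 2.20 and 1.49 CPM against 3.05, 25.7 and 64.0 CPM (3.35 ± 0.46, adjusted p = 0.00212). JS20 held it at 0 CPM, unlike Magi1 and Mob3a.

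H2-T22, a nonclassical MHC class I gene recognised by some gamma delta T cells (chr17:36037128-36042747), was at 17.5, 18.2, 14.7, 14.3 and 26.7 CPM in PBS and at 45.6, 91.9 and 147.9 CPM in EtOH (2.27 ± 0.35, adjusted p = 0.00405). Hmgcs1, which makes the precursor of mevalonate for cholesterol, was at 45.2, 30.4, 36.1, 38.3 and 35.9 CPM against 65.0, 70.1 and 110.4 CPM (1.10 ± 0.18, adjusted p = 0.00563). Neither gene overlapped between groups. The other 10 higher genes were Clstn3 (2.98), the thromboxane receptor gene Tbxa2r (1.51), Trim12c (1.76), Igsf23 (2.13), the kinetochore gene Mis12 (1.34), Zfp763 (1.73), the Golgi gene Golph3l (1.11), Kif1bp (1.03), Insig2, which holds back cholesterol synthesis (1.11), and the microtubule gene Map7 (3.20), with adjusted p from 0.00345 to 0.00723. Clstn3 and Igsf23 were low, at 5.34 ± 2.16 and 22.6 ± 6.35 CPM in EtOH and 0.751 ± 0.662 and 4.42 ± 2.54 CPM in PBS. Reads of Trim12c, H2-T22 and zinc finger genes can also match close relatives, so their counts are uncertain.

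**Figure D3:**
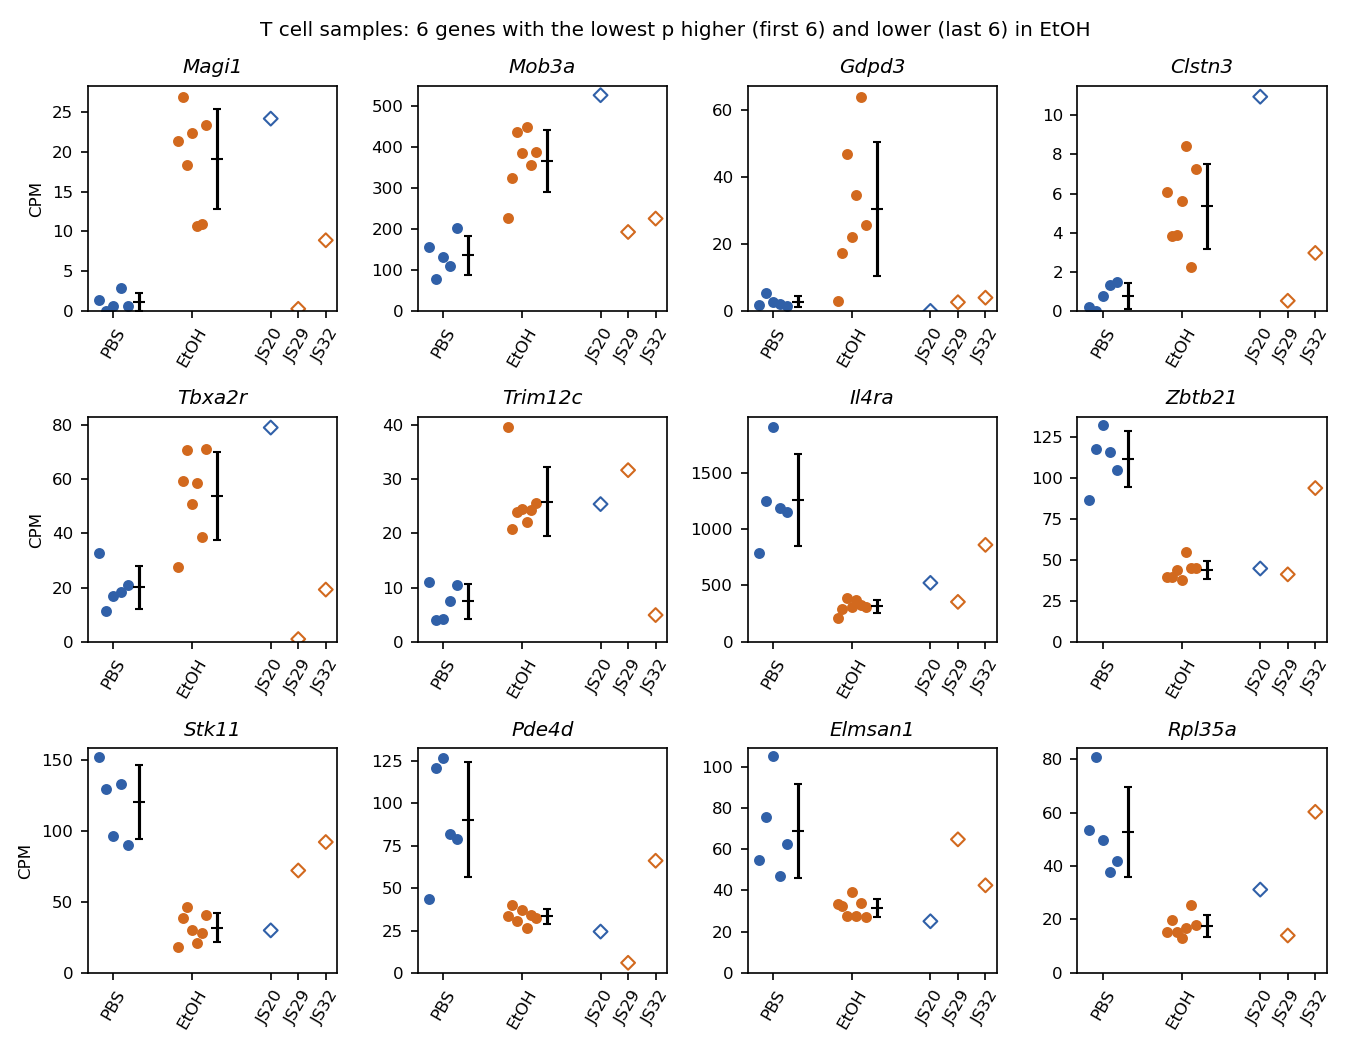
CPM of the 6 genes with the lowest p among those higher in EtOH (from Magi1 to Trim12c) and the 6 among those lower (from Il4ra to Rpl35a), 1 point per sample, with mean and SD beside each group and the left-out samples as open diamonds in the colour of their label. JS20 (labelled PBS) lies at 523 CPM for Il4ra and 24.2 CPM for Magi1, and JS32 (labelled EtOH) at 860.2 and 8.89 CPM.

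For these 15 higher genes, JS20 lay within the EtOH range alone in 9 and within the PBS range in 0, and JS32 within the EtOH range alone in 2 and within the PBS range alone in 9. For the 15 lower genes, JS20 lay within the EtOH range alone in 8 and the PBS range alone in 1, and JS32 in 0 and 12. The 12 T cell samples labelled CBM, a treatment the labels do not explain, come from sequencing batch 2, so batch and treatment cannot be told apart for them. Their median lay within the EtOH range alone for 7 of the 15 higher and 8 of the 15 lower genes, and within the PBS range alone for 2 and 2. Il4ra had a CBM median of 388.6 CPM, Zbtb21 of 28.8, Per1 of 30.9, Magi1 of 3.65 and Gdpd3 of 0.861 CPM.

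Promoters of 4 of these genes are shown because cyclic AMP response elements (CRE, TGACGTCA) and E-boxes (CACGTG), the letters bound by CREB and by clock and MYC-type factors, stood in them. The windows run from 250 bases before to 50 after an annotated start (RefSeq, GRCm38.p6), are written 5′ to 3′ on the gene's strand, and have the CRE or E-box in capitals.
Zbtb21, lower, chr16:97962573-97962872, minus strand: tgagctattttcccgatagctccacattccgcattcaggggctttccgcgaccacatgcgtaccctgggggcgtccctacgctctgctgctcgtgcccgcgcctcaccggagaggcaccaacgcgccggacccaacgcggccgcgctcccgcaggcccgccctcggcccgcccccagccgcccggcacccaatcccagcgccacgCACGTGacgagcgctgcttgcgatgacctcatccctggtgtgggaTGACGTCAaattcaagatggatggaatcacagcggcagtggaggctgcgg
Zfand2a, lower, chr5:139484442-139484741, minus strand: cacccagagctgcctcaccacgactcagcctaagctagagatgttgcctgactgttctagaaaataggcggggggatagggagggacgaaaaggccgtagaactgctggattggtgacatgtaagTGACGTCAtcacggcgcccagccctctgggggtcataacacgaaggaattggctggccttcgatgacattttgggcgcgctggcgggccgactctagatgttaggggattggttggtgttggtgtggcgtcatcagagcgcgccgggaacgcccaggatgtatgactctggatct
Per1, lower, chr11:69098699-69098998, plus strand: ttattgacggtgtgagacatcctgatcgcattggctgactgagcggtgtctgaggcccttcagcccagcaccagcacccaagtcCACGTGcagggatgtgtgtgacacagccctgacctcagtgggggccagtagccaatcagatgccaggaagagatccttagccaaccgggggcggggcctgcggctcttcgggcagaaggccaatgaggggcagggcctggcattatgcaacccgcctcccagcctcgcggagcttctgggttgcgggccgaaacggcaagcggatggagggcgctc
Clstn3, higher, chr6:124464735-124465034, minus strand: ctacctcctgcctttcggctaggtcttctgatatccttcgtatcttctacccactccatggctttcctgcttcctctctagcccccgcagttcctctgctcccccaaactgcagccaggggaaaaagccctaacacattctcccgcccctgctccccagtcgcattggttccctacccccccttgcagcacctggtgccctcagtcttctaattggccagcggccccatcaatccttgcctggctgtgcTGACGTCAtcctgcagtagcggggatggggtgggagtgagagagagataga
Zbtb21 held a CRE from base 251 and an E-box from base 206 of the window, Zfand2a a CRE from base 126, Per1 an E-box from base 85 and Clstn3, which rose, a CRE from base 250. The motifs were searched on both strands, where both read the same. Windows were found for 26 of the 30 genes, of which 3 held a CRE, 2 an E-box and 1 an AP-1 site (TGANTCA). Over all 32851 promoter windows of the table, 1.79% held a CRE, 7.15% an E-box and 7.81% an AP-1 site. Counted by gene, a CRE stood in 5.38% of the 260 lower, 2.65% of the 151 higher and 3.79% of the 8917 tested genes with a window, and an E-box in 15.8%, in 4.64% and in 1071 genes of the 8917. An AP-1 site stood in 7.31%, 7.28% and 5.89%. These shares are descriptions without a test, and a match is not a bound site.

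Genes of the immediate early response and of cyclic AMP signalling were among those that fell. Of 17 immediate early genes measured, 6 fell and 0 rose, and the median difference over the list was -0.78, beside -0.02 over all 12797 genes and 2.91% of all genes lower. Nr4a2, an orphan nuclear receptor gene, was at 4.65, 14.1, 12.4, 5.72 and 10.4 CPM in PBS and at 0, 1.74 and 4.24 CPM in EtOH, without overlap (-2.31 ± 0.34, adjusted p = 0.00217). Egr1, a zinc finger factor, was at 131.0, 106.5, 142.2, 84.1 and 97.7 CPM against 21.3, 38.7 and 75.5 CPM (-1.30 ± 0.29, adjusted p = 0.025). No sample of Egr1 crossed between the groups either. Jund fell by 1.09, Ier2 by 1.03 and Fosb by 1.65. Fos and Jun, the founding members of AP-1, were at -0.38 and -0.35 and did not pass (adjusted p = 0.438 and 0.445). Of 13 cyclic AMP and CREB target genes 6 fell and 0 rose (median -0.65), among them Pde4d, Per1 and Nr4a2, which stand above, the repressor gene Crem (25.2 ± 5.65 against 63.0 ± 32.5 CPM, -1.60 ± 0.27, adjusted p = 0.00676) and the kinase gene Sik1 (-1.14 ± 0.27, adjusted p = 0.0291). Nr4a2 and Crem kept their calls without any 1 sample, whereas Egr1, Ier2, Fosb and Sik1 lost theirs without JS7 (adjusted p between 0.14 and 0.146) and Jund without JS4 (0.0694).

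Glucocorticoid-responsive, clock and temperature-responsive genes overlapped these lists in part. Their counts stand beside 2.91% of all genes that passed as lower. Of 14 glucocorticoid-responsive genes 4 fell, Per1, Klf9, Errfi1, an inhibitor of the EGF receptor (22.5 ± 4.07 against 46.7 ± 12.4 CPM, -1.22 ± 0.20, adjusted p = 0.00501), and Klf13 (-0.62 ± 0.12, adjusted p = 0.011). Tsc22d3 and Fkbp5, widely used targets of the same receptor, were at -0.43 and 0.42 and did not pass (adjusted p = 0.342 and 0.646), and the list median was -0.41. Of 16 clock genes Per1 and Nfil3 (-0.95 ± 0.25, adjusted p = 0.0467) fell, and the core genes Clock (0.21), Arntl (-0.33), Per2 (0.38) and Cry1 (0.06) did not pass. Of 14 heat shock and unfolded protein genes 4 fell, and of these the cold-inducible RNA-binding genes Cirbp and Rbm3 had the lowest p. Cirbp was at 186.8, 274.7, 314.0, 241.3 and 148.8 CPM in PBS and at 57.9, 115.0 and 133.1 CPM in EtOH, without overlap (-1.30 ± 0.20, adjusted p = 0.00416), and Rbm3 differed by -0.82 ± 0.16 (adjusted p = 0.0151). Hspa5, the chaperone of the endoplasmic reticulum, fell by 0.73 and Atf4, a factor of the stress response, by 0.57, with adjusted p of 0.0396 and 0.0496. Klf13 and Rbm3 lost their calls without JS4 (adjusted p = 0.0645 and 0.0841), and Nfil3, Hspa5 and Atf4 without JS7 (0.205, 0.167 and 0.213).

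**Figure D4:**
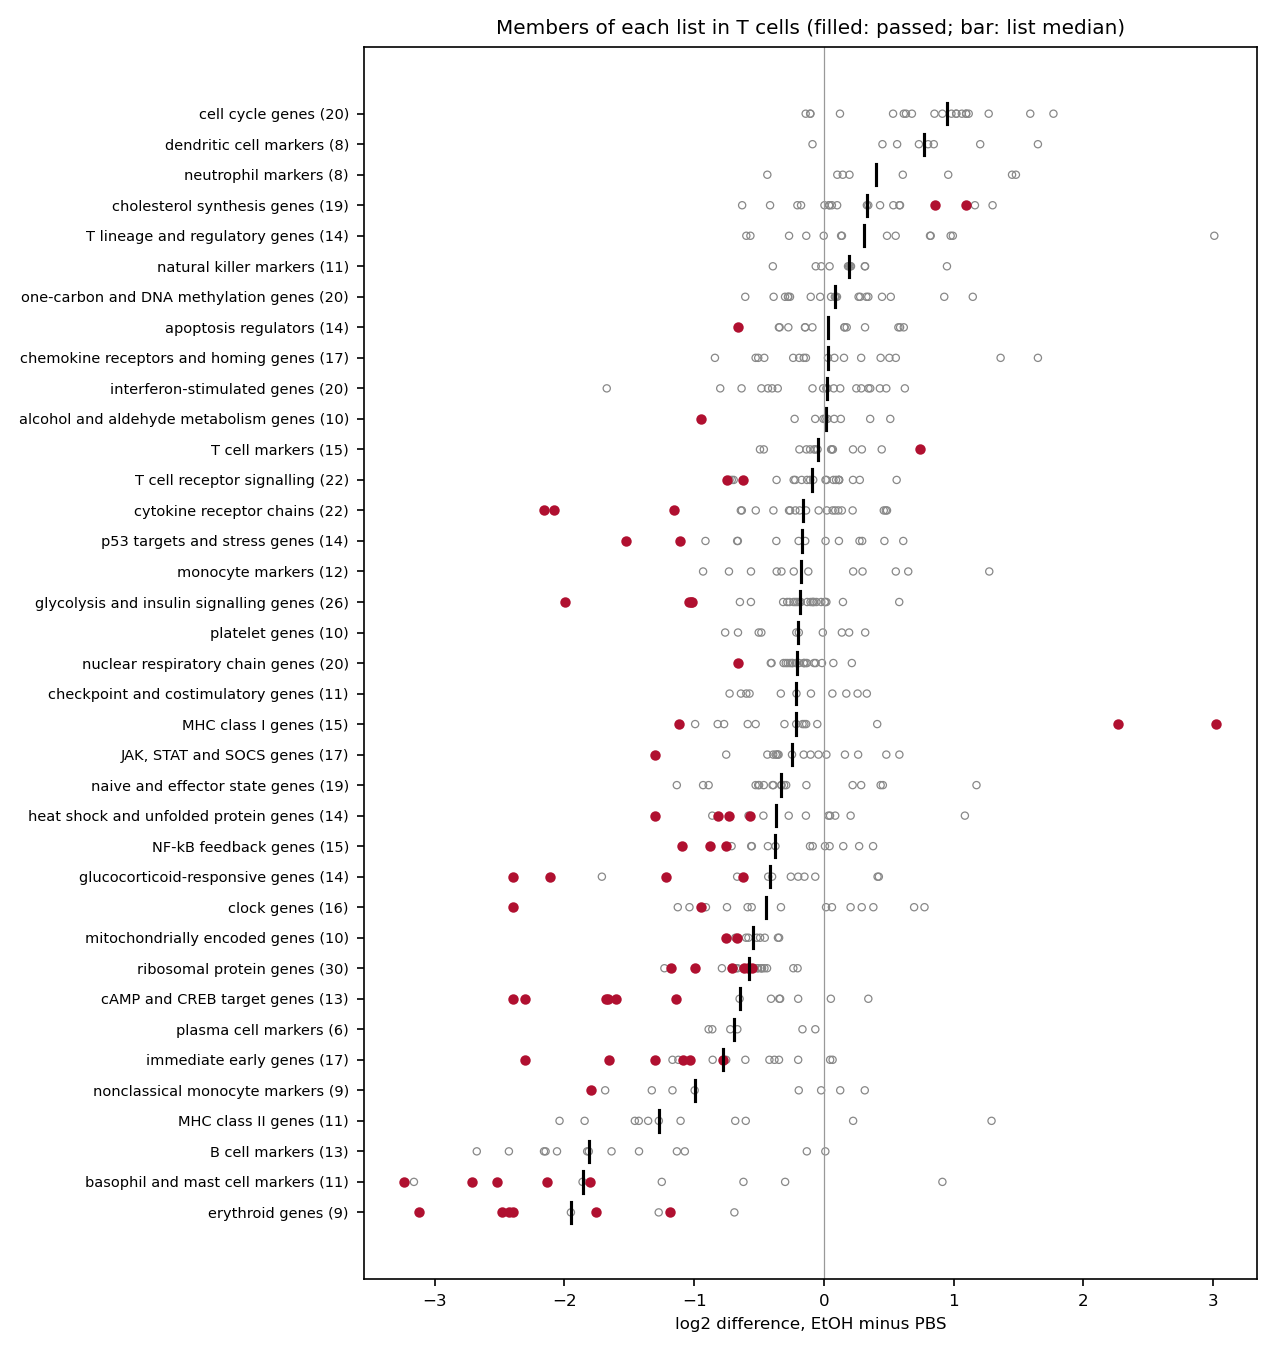
Log2 differences (EtOH minus PBS, x axis) of the measured members of 37 gene lists, with the number measured in brackets, filled points for members that passed and a bar at the list median. Erythroid (median -1.95) and basophil and mast cell lists (-1.86) lie lowest, and the cell cycle list lies highest (0.95) with 0 of 20 members passing.

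Among the genes that carry T cell signals, a few cytokine receptor chains and NF-kB genes fell, and most members of each list did not pass. Over all genes, 2.91% passed as lower. Of 22 cytokine receptor chains 3 fell, Il4ra and both chains of the interferon gamma receptor, with a list median of -0.16. Ifngr2 was at 141.8, 456.0, 418.0, 192.2 and 218.0 CPM in PBS and at 39.6, 63.3 and 118.0 CPM in EtOH, without overlap (-2.08 ± 0.31, adjusted p = 0.00345). Ifngr1, the ligand-binding chain, was at 855.3, 2711, 2250, 2503 and 1733 CPM against 655.4, 1047 and 1406 CPM, overlapping through JS1 (-1.16 ± 0.29, adjusted p = 0.0405). The groups of Il21r did not overlap either, but it did not pass (-0.64 ± 0.21, adjusted p = 0.0899). Of 22 genes of T cell receptor signalling 2 fell, Malt1 (-0.75 ± 0.16, adjusted p = 0.0188) and Bcl10 (-0.62 ± 0.17, adjusted p = 0.0487), partners in the complex that passes the signal to NF-kB. Of 15 NF-kB feedback genes 3 fell, the inhibitor gene Nfkbia (314 ± 62.0 against 589 ± 160 CPM, -1.09 ± 0.18, adjusted p = 0.00593), Tnfaip3 (-0.88 ± 0.21, adjusted p = 0.0304) and Birc3 (-0.76 ± 0.19, adjusted p = 0.042). Socs3, a feedback inhibitor of cytokine signals, was the only one of 17 JAK, STAT and SOCS genes to pass (-1.30 ± 0.33, adjusted p = 0.0396). That is 5.88% of the list, near the 4.45% of all genes that passed. Without JS4 Ifngr1 was at an adjusted p of 0.163, and without JS7 Malt1, Bcl10, Tnfaip3, Birc3 and Socs3 were at 0.0964 to 0.195.

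Of 15 T cell markers Cd27, a costimulatory receptor of the TNF family, rose (0.74 ± 0.16, adjusted p = 0.0202, and 0.0956 without JS7). The list median was -0.05, and 6.67% of the list passed, near the 4.45% of all genes. None of 14 T lineage and regulatory genes passed, with Cd4 at -0.00 and Cd8a at 0.82 (adjusted p = 0.998 and 0.296), and none of 19 naive and effector state genes, 17 chemokine receptor and homing genes, 11 checkpoint genes or 20 interferon-stimulated genes. Cd8a was at 1089 CPM in the EtOH sample JS35, at 152 to 295 CPM in the other EtOH samples and at 138 to 216 CPM in PBS. JS35 also stood apart in the chemokine receptor gene Ccr9, at 809.6 CPM. The other EtOH samples held Ccr9 at 68.1 to 90.9 CPM and the PBS samples at 26.8 to 54.9 CPM. None of 20 cell cycle genes passed (median 0.95), and their summed level was uneven within both groups, at 448 to 1855 CPM in PBS and 544 to 5104 CPM in EtOH. Of 14 p53 target and stress genes Bbc3 (-1.52 ± 0.35) and Gadd45b (-1.11 ± 0.26) fell, and of 14 apoptosis regulators Bcl2l11 (-0.66 ± 0.14), with adjusted p of 0.029, 0.0281 and 0.0229. These 3 calls were lost without JS4 or JS7 (adjusted p between 0.112 and 0.203). The p53 list had 14.3% of its members passing and the apoptosis list 7.14%, beside 4.45% of all genes.

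A minority of ribosomal and mitochondrial genes fell. All 30 ribosomal protein genes had a difference below 0 (median -0.57), as had 6605 of the 12797 genes tested, and 6 passed beside 2.91% of all genes lower, such as Rplp1 (124 ± 23.1 against 252 ± 53.6 CPM, -1.18 ± 0.18, adjusted p = 0.00356) and Rplp2 (-0.71 ± 0.13, adjusted p = 0.0116). All 10 mitochondrially encoded genes measured were also below 0 (median -0.55), and 2 passed, mt-Nd5 (524 ± 46.6 against 743 ± 85.2 CPM, -0.67 ± 0.14, adjusted p = 0.0184) and mt-Nd6 (-0.76 ± 0.18, adjusted p = 0.0367). Of 20 nuclear genes of the respiratory chain 1 fell, Atp5g1 (-0.66), which is 5% of the list, near the 4.45% of all genes that passed. Rplp1 kept its call without any 1 sample, and the others lost theirs without JS4 (Rplp2, adjusted p = 0.0652, and mt-Nd5, 0.0876) or JS7 (mt-Nd6, 0.118, and Atp5g1, 0.0596).

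Glucose and insulin genes fell where they changed, and 2 cholesterol genes rose. Of 26 glycolysis and insulin signalling genes 4 fell, Stk11, the glucose transporter gene Slc2a1 (48.3 ± 6.40 against 86.0 ± 23.5 CPM, -1.02 ± 0.17, adjusted p = 0.00584), the insulin receptor substrate gene Irs2 (-1.04 ± 0.21, adjusted p = 0.0172) and the factor gene Foxo3 (-1.01 ± 0.23, adjusted p = 0.028). The list median was -0.18, and 15.4% of the list passed, beside 4.45% of all genes. Of 19 cholesterol synthesis genes Hmgcs1 and Dhcr7, the last enzyme of the pathway (0.85 ± 0.20, adjusted p = 0.0304), rose and 0 fell, with a median of 0.33 beside 1.54% of all genes higher. Acss2, which makes acetyl-CoA from the acetate that alcohol breakdown yields, was at 96.5, 108.8, 117.3, 86.1 and 82.9 CPM in PBS and at 30.5, 58.6 and 70.1 CPM in EtOH. It was lower in every EtOH sample than in any PBS sample and the only one of 10 alcohol and aldehyde genes to pass (-0.95 ± 0.15, adjusted p = 0.0044). None of 20 one-carbon and DNA methylation genes passed, with Tet1 at 1.15 ± 0.32 (adjusted p = 0.0608). Irs2, Foxo3 and Dhcr7 lost their calls without JS7 or JS4 (adjusted p up to 0.155).

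MHC class I genes went both ways, and of 11 MHC class II genes, which B cells and other presenting cells carry, 0 passed at a median of -1.27. JS1 stood apart in these too, with H2-Ab1 at 770.8 CPM against 28.4 to 68.8 CPM in the other PBS samples and 19.4 to 57.4 CPM in EtOH. H2-T22 and H2-T23 rose and H2-K1, a classical gene that presents peptides to CD8 T cells, fell, out of 15 measured. Over all genes, 1.54% passed as higher and 2.91% as lower. H2-K1 was at 1872, 2796, 2516, 2720 and 2433 CPM in PBS and at 501, 1324 and 1603 CPM in EtOH, without overlap (-1.12 ± 0.26, adjusted p = 0.0302). H2-T23 spread widely in EtOH, from 24.7 over 207 to 502.4 CPM, against 20.7 to 32.2 CPM in PBS, and 6 of 7 EtOH samples lay above the PBS mean (3.03 ± 0.73, adjusted p = 0.0348). CD1 is outbred, and reads of different MHC alleles may map unequally to the reference, which was not tested. Without JS4 H2-K1 was at an adjusted p of 0.13, and without JS53 H2-T23 at 0.189.

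Among the markers of other blood cells, members of the erythroid and the basophil and mast cell lists fell, beside 2.91% of all genes lower. In sorted bulk samples fewer cells of a type and less RNA per cell cannot be told apart. Of 9 erythroid genes measured 6 fell, and their summed level was 723 CPM in JS1 and 4637 to 7111 CPM in the other PBS samples, against 431 to 2358 CPM in EtOH. Hbb-bs, which codes for a haemoglobin subunit, stood at 391.8, 3173, 3522, 2408 and 2916 CPM in PBS and at 221, 681.6 and 1263 CPM in EtOH (-2.40 ± 0.42, adjusted p = 0.00826). The PBS samples other than JS1 all lay above EtOH, and JS1 lay among the EtOH samples. Alas2, whose enzyme starts haem synthesis in developing red cells, differed by -2.43 ± 0.46 (adjusted p = 0.0124, and 0.0792 without JS7). With the mean level of the erythroid genes as a term in the model, 26 of 12797 genes passed, 22 of them among the 569 and in the same direction. Of the 30 genes above, Magi1 and Clstn3 (higher) and Il4ra, Zbtb21, Stk11, Elmsan1, Rpl35a, Per1 and Hbb-bt (lower) still passed. Hbb-bt is itself a member of the erythroid list that makes the term. The other 21 did not pass. Some of the 21 kept differences near those without the term, such as Mob3a (1.45, adjusted p = 0.0941), Trim12c (1.67, 0.129) and H2-T22 (2.18, 0.163), while Pde4d was at -1.28 (0.0846) and Gata2 at -2.50 (0.107). Of the 569 genes, 567 kept their sign. Since the erythroid level differs between the groups, its part in the result and that of the treatment cannot be told apart by that term.

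Basophil and mast cell markers (11 of 11 measured) summed to 128 to 315 CPM in PBS and 19.5 to 137 CPM in EtOH. Of these 5 fell, with a median of -1.86 over the list, beside 2.91% of all genes lower. Gata2 was at 28.2, 28.0, 29.5, 35 and 59.99 CPM in PBS and at 0.771, 2.11 and 12.2 CPM in EtOH, and Hdc, which makes histamine, at 41.5, 59.6, 45.7, 40.3 and 79.9 CPM against 2.82, 5.77 and 22.1 CPM. Neither overlapped (adjusted p = 0.00202 and 0.00694). Mcpt8, a basophil protease gene, and Ms4a2, a chain of the IgE receptor, overlapped and lost their calls without JS4 (adjusted p = 0.0966 and 0.148). Hdc and Csf1, both among the 5, were also high in PBS monocytes, at 929.6 and 302.7 CPM. Whether they mark basophils in these T cell samples was not tested. B cell markers had a median of -1.81 with 0 of 13 passing, and Cd79a was at 623.9 CPM in JS1 and 13.1 to 26.7 CPM in the other PBS samples. With the B cell level as a term 1327 genes passed. Of monocyte (12 measured), neutrophil (8), natural killer (11), dendritic cell (8), platelet (10) and plasma cell markers (6), 0 passed, and of 9 nonclassical monocyte markers Ace did (-1.80 ± 0.47, adjusted p = 0.0425, and 0.165 without JS7). With the natural killer level as a term 776 genes passed, 563 of them among the 569 and in the same direction, and with the monocyte level 457, of which 438 were. The part of the other cell types in the result was not tested.

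The comparison was also made in B cells (6 EtOH, 6 PBS) and monocytes (6 EtOH, 5 PBS) with the same runs left out. In B cells 1524 of 12183 genes passed (12.5%) and in monocytes 261 of 12623 (2.07%). Of the 197 genes higher in T cells, 96 also passed as higher in B cells. That is 48.7% of the T cell list and 14.2% of the 678 that passed as higher in B cells (5.57% of genes tested). In monocytes 22 also passed as higher (11.2%, and 23.4% of the 94 that did there, 0.745% of genes tested). Whether they passed or not, 163 of the 169 tested in B cells and 164 of the 170 tested in monocytes were above 0. Of the 372 lower, 202 also passed as lower in B cells (54.3%, and 23.9% of the 846 that did there, 6.94% of genes tested). In monocytes 53 also passed as lower (14.2%, and 31.7% of the 167 that did there, 1.32% of genes tested). Below 0 were 335 of the 350 tested in B cells and 311 of the 360 tested in monocytes. 2 of the 372 passed as higher in monocytes, and 0 of 569 passed in the opposite direction in B cells. In all 3 cell types 53 genes passed in the same direction, 14 higher, such as Magi1, Mob3a and Gdpd3, and 39 lower, such as Zbtb21, Stk11, Elmsan1, Rpl35a, Per1, Klf9, Cirbp, Slc2a1, Errfi1, Hbb-bt and H2-K1. The fractions may come from the same animals, which the labels do not say, so these overlaps are not independent repeats.

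**Figure D5:**
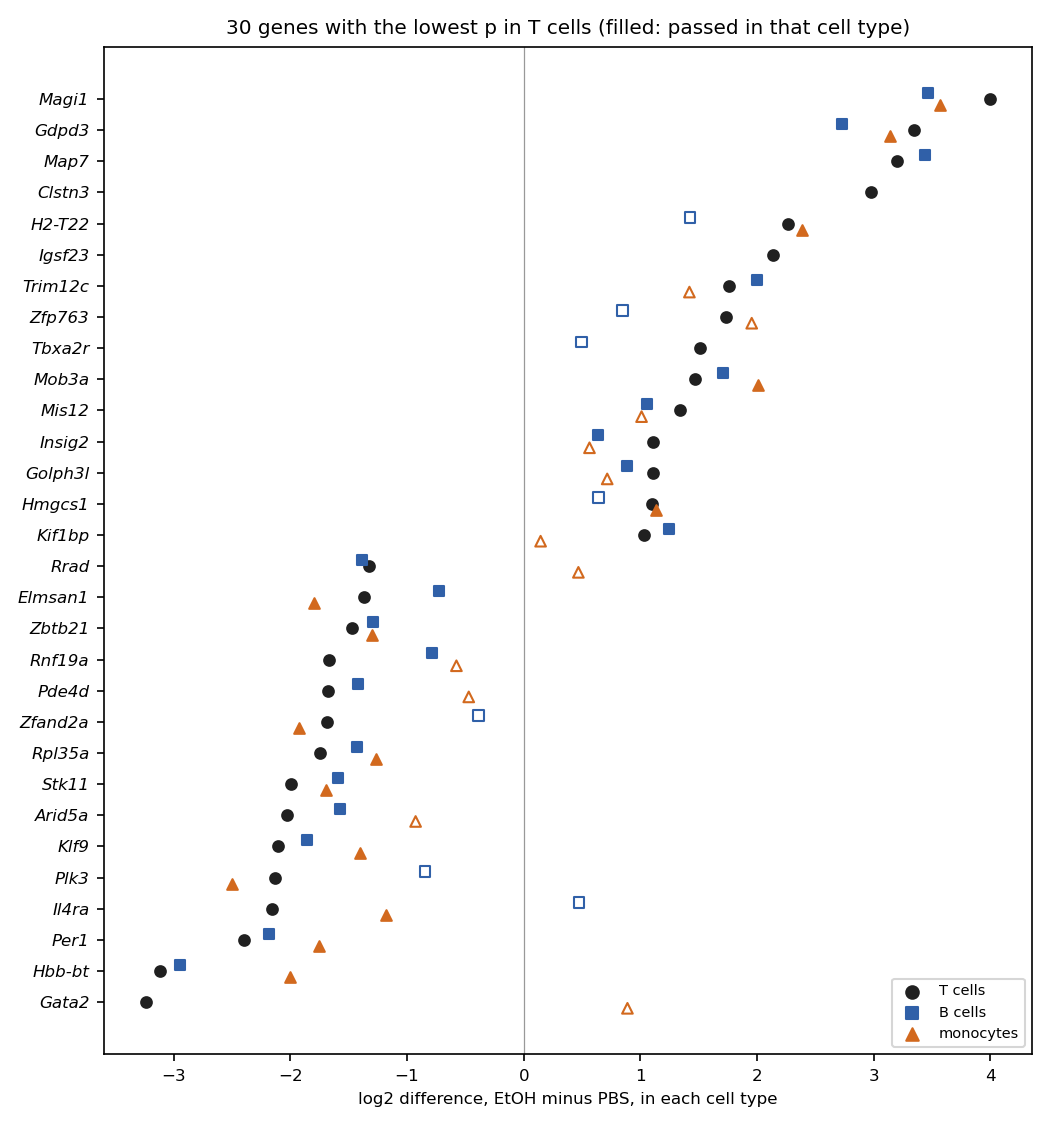
Log2 differences (EtOH minus PBS) of the 30 genes with the lowest p in T cells, as circles for T cells, squares for B cells and triangles for monocytes, filled where the gene passed in that cell type and absent where it was not tested. Magi1 lies between 3.46 and 3.99 in the 3 cell types, while Il4ra is at -2.15 in T cells, 0.48 in B cells and -1.18 in monocytes.

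The difference between cell types was itself tested, and few genes passed. These tests treat the samples of both cell types as independent, though they may come from the same animals. Against B cells the EtOH effect in T cells differed for 6 of 14827 genes (0.0405%), 2 with a higher (0.0135%) and 4 with a lower value (0.027%). Il4ra was at 249 ± 44.8 CPM in EtOH and 233 ± 87.2 CPM in PBS B cells, and its effect was lower in T cells by a log2 difference of -2.64 ± 0.34 (adjusted p = 0.000649). The chemokine gene Ccl9 (-2.83 ± 0.54, adjusted p = 0.0435) and Hif1a, the factor of the response to low oxygen (-1.29 ± 0.23, adjusted p = 0.0349), fell in T cells by 2.57 and 1.18 and were at 0.26 and 0.10 in B cells, where neither passed. Sesn1, a p53 target, differed the other way (2.27 ± 0.38, adjusted p = 0.0121), as it fell in B cells from 1624 ± 471 to 526.3 ± 150.3 CPM (-1.67, adjusted p = 0.000628) and did not pass in T cells (0.61, adjusted p = 0.154).

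Against monocytes the effect differed for 19 of 15495 genes (0.123%), 5 higher (0.0323%) and 14 lower (0.0904%). Mcpt8, Gata2, Ms4a2 and Cyp11a1, a steroid-making enzyme gene also found in basophils and mast cells, were lower in T cells of the EtOH group, while in monocytes Mcpt8 rose from 11.9 ± 3.74 to 85.9 ± 59.6 CPM (2.69, adjusted p = 0.00742) and Ms4a2 from 15.5 ± 8.34 to 50.8 ± 23.5 CPM (1.84, adjusted p = 0.0248). The differences between both cell types were -5.43 ± 0.75 for Mcpt8, -4.15 ± 0.62 for Gata2, -3.95 ± 0.68 for Ms4a2 and -3.80 ± 0.61 for Cyp11a1 (adjusted p = 0.00227 to 0.0103). Of the 11 basophil and mast cell markers, Mcpt8, Ms4a2, Fcer1a, Prss34, Cd200r3 and Il4 rose in monocytes. Hdc, the highest of the 11, fell there from 929.6 ± 248 to 380.8 ± 184.7 CPM (-1.60, adjusted p = 0.0197). Over all genes in monocytes, 0.745% passed as higher and 1.32% as lower. Gata2 (0.89, adjusted p = 0.207) and Csf1 (-0.83, adjusted p = 0.147) did not pass in monocytes. Ifngr2 differed by -2.45 ± 0.41 (adjusted p = 0.0103), with 223 ± 36.8 CPM in EtOH and 156 ± 33.0 CPM in PBS monocytes, and Rrad by -1.79 ± 0.34 (adjusted p = 0.0307). Without the PBS sample JS4 4 genes passed, without JS7 9, without JS15 11 and without the EtOH samples JS41 or JS53 12 each, and in the test against B cells 14 passed without JS1 and 15 with no term for sex. With the left-out runs put back edgeR called 0 genes in either test.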

How the data were processed

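Blood T cells were sorted and sequenced from low input with the SMART-Seq v4 and Nextera XT kits on an Illumina NovaSeq as paired reads, per the labels' protocols. Per the submitters' processing notes the tools were bcl2fastq, FastQC, HISAT2 2.1.0 and HTSeq 0.11.2, with mouse GRCm38 as the genome. The deposited values are raw read counts per gene, made by the authors, for 53465 genes in 124 libraries. The annotation is named after a human build although its identifiers are mouse ones, and whether counting used strand is not given in the sources used here. 3 lines name no gene and were left out. Symbols and positions come from GENCODE M21, which holds 53274 of the identifiers, after 26 symbols that had turned into dates were recovered, and promoters come from RefSeq (GRCm38.p6).

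The 2 libraries of a sample were summed (22 libraries for the 12 samples). Genes were kept with edgeR's expression filter (minimum count 10, minimum total 15), scaled by TMM and tested with the quasi-likelihood F-test of edgeR 4.0.16 in R 4.3.3, with treatment and labelled sex as terms and Benjamini-Hochberg adjustment over all genes tested. SE values were derived from the F statistic. CPM values are counts per 1000000 counts of the sample. The difference between cell types was tested as an interaction over both, with no term for the animal. DESeq2 1.42.0, limma 3.58.1 voom with sample weights, other filters, other terms and leaving out each sample were alternatives. Total counts were 0.33 to 5.78 M per sample, so that low genes of the shallowest sample are the least precise.

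The samples compared and the gene lists were chosen with earlier results of these data known. Genes named are the 15 with the lowest p in each direction, up to 5 members of each of 37 lists by lowest p, the highest marker of each cell type and, among genes that passed, the 5 with the lowest p of each difference between cell types. Predicted genes and pseudogenes were counted and not named. Clock, Arntl, Per2, Cry1, Fos, Jun, Tsc22d3, Fkbp5 and Cd4 were named after their values were seen.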

Additional observations from a re-analysis of the deposited data

Results flagged for a closer look

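Of 78 groups of values checked within PBS or within EtOH, 7 had 1 sample far from the others. The rule marks about 1 in 20 groups of independent, normally distributed values. Many groups here are genes chosen by lowest p, so that rate need not hold for them. In PBS, Igsf23 was at 8.87 CPM in JS7 and Gata2 at 59.99 CPM in JS15. The summed B cell markers stood apart at 5560 CPM in JS1 and the summed natural killer markers at 4215 CPM in JS15. In EtOH all 3 cases were the shallow sample JS23, with Trim12c at 39.6 CPM, 23.6% of its counts in its 50 highest genes and receptor genes at 6496 per 1000000 counts. The part of these samples in the counts of genes was measured by leaving each out.

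The EtOH effect differed between cell types by the test of the difference itself (edgeR, adjusted over all genes) in 12 cases among the genes named. Against B cells the log2 difference in effect was -2.64 for Il4ra, 2.27 for Sesn1, -1.29 for Hif1a and -2.83 for Ccl9. Against monocytes it was -1.79 for Rrad, -4.15 for Gata2, -5.43 for Mcpt8, -3.95 for Ms4a2, -2.45 for Ifngr2, -1.58 for Pmaip1, -2.48 for Ccl9 and -3.80 for Cyp11a1. Gata2, Mcpt8, Ms4a2 and Cyp11a1 are known from basophils or mast cells, whose summed markers were lower in EtOH than in PBS T cells, and their share in the sorted fractions was not measured.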

How the results depend on the processing

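No paired analysis was possible because no EtOH sample shares a number with a PBS sample. Against 569 genes that passed in T cells, DESeq2 called 1122, limma voom with sample weights 1691 and the fit with no filter on low counts 1090. A term for the B cell level gave 1327 and one for the erythroid level 26. Without JS15 and JS44 the count was 269, and leaving out 1 sample at a time gave 96 to 955. The Y-linked level in place of labelled sex gave 549, and no sex term 591. With the left-out runs included edgeR called 0 in T cells and 0 in both tests between cell types. Against 6 genes between T and B cells, DESeq2 called 34, the fit with no sex term 15 and leaving out 1 sample 4 to 14. Against 19 between T cells and monocytes, DESeq2 called 50 and leaving out 1 sample 4 to 25.

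Of 85 named genes that passed, 45 kept their call without each sample in turn. With the runs included, 6 turned direction, Ace (2.59), Hdc (1.18), Csf1 (0.56), Egr1 (0.10), Nfil3 (0.56) and Gadd45b (0.019), and with the erythroid term Ace did (0.094). The fits with the runs included hold JS29 with its monocyte markers. The share in the 50 highest genes was 0.35 percentage points higher in EtOH, and leaving out 1 sample gave -1.32 (without JS23) to 0.95. The mitochondrial share had an adjusted exact permutation p of 0.0303 without JS1. Low depth limits what JS23 shows of genes under a few CPM. The cause of these shifts was not tested.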
